A study of Mus musculus with 9 samples.

Results

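Hemidesmosomes are the junctions by which epithelial cells hold on to the basement membrane. The integrin α6β4 (genes *Itga6* and *Itgb4*) binds laminin-332 outside the cell, a trimer whose chains include those encoded by *Lama3* and *Lamb3*. Inside the cell the long cytoplasmic tail of the β4 subunit binds plectin (*Plec*) and, with the transmembrane collagen XVII (*Col17a1*) and the short epithelial product of *Dst*, links the junction to keratin filaments, while the tetraspanin *Cd151* associates with laminin-binding integrins. The α6 subunit pairs with β4 in preference to β1 where both are made, and mammary epithelium rests on a laminin-rich basement membrane.

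The 8 genes described here, *Itgb4*, *Itga6*, *Lama3*, *Lamb3*, *Col17a1*, *Plec*, *Dst* and *Cd151*, were found by their symbol and are 8 of 52459 gene symbols, with 85 of 131100 transcripts. They were chosen for this function together with the level of *Itgb4*, which was known to be far higher in EPR than in EPRSTOPE cells. Values of *Itgb4*, and of every one of the 8 genes between EPR and EPRSTOPE cells, are therefore given as a description, with no p-value, and where calls in that contrast are counted, the count stands beside the share of all genes or transcripts and nothing is read from it. RNA-Seq was run on 9 libraries of NMuMG cells, an immortalised mouse mammary gland line, with 3 libraries in each of 3 groups. All 3 populations were G418-selected pools stably transfected with a pBICEP-based expression vector: mock cells carry the empty vector, EPR cells overexpress the lncRNA EPR (gene *BC030870*) under the CMV promoter, and EPRSTOPE cells overexpress a mutant of EPR made so that its small peptide is not produced. The methods call the libraries biological triplicates and do not say whether they come from separate pools, so p-values measure the spread between these libraries only.

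The libraries held 5972457 to 11876435 estimated counts, and 3 counts, the smallest number read as a signal here, equal 0.253 to 0.502 CPM (counts scaled to the library total) depending on the library. *BC030870* itself was at 0, 0 and 2 estimated counts in the mock, 271.1, 214.4 and 255.6 in the EPR and 28.3, 39.0 and 32.6 in the EPRSTOPE libraries. These counts do not separate the transgene from the cell's own gene. RNA of both together was 5.9-fold higher in EPR than in EPRSTOPE cells (log2 fold change 2.56, SE 0.20, edgeR, adjusted p = 2.0e-06). The part of this gap in the differences below was not tested. The labelled cell type was checked against markers. Of 8 luminal epithelial markers *Krt8* and *Krt18* were abundant everywhere, whereas *Epcam*, *Cldn3* and *Cldn4* were at 0 in every mock library. *Cldn3* and *Cldn4* were at 0 in every EPRSTOPE library as well, and *Epcam* averaged 0.11 CPM in EPRSTOPE against 3.63 in EPR cells. *Cdh1* (E-cadherin) averaged 0.84 CPM in mock cells against 556.26 in EPR and 402.63 in EPRSTOPE cells. The summed level of the luminal list ran from 2317 to 2903 TPM (transcript abundance scaled for length and library) in mock, 5192 to 6428 in EPR and 5702 to 7719 in EPRSTOPE libraries. The 7 basal or myoepithelial markers summed to 6.26 to 8.47, 0.76 to 0.96 and 1.36 to 2.59 TPM, with the defining basal gene *Trp63* at 0 in every library. Fibroblast markers (8 genes) stayed within 0.48 to 1.90 TPM, endothelial markers (4) within 4.71 to 8.19 and leukocyte markers (5) within 1.79 to 3.81. In these bulk samples fewer cells of a type and less RNA per cell cannot be told apart. The part of the epithelial marker difference in the results that follow was not tested.

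A gene was called when its log2 fold change passed 0.5 in either direction with an adjusted p below 0.01 (edgeR's quasi-likelihood test, Benjamini-Hochberg adjustment over 15370 genes). By this rule 28.1% of all genes differed between EPR and mock cells, 28.0% between EPRSTOPE and mock cells and 13.2% between EPR and EPRSTOPE cells, and libraries of the 2 groups did not overlap for 57.8%, 56.5% and 43.0% of genes. Of the 8 genes 7 passed the filter on low counts, and *Lama3* did not. Among the 6 tested genes other than *Itgb4*, 2 were higher in EPR than in mock cells (*Itga6* and *Cd151*, against 15.2% of all genes called higher) and 4 in EPRSTOPE cells (*Itga6*, *Plec*, *Cd151* and *Lamb3*, against 15.6%), while none was called lower (12.9% and 12.4% of all genes were) and all 6 had log2 fold changes above 0 in both. *Plec* and *Dst* passed the adjusted p in EPR cells without reaching the size limit. The median log2 fold change of the 6 was 0.57 in EPR and 0.58 in EPRSTOPE cells against mock, beside -0.01 and -0.04 over all genes tested. The comparisons share the mock libraries, so they are not independent of each other. Between EPR and EPRSTOPE cells 1 of 7 was called higher, *Itgb4* (6.86% of all genes were), from which nothing is read since this contrast chose it.

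**Figure D1:**
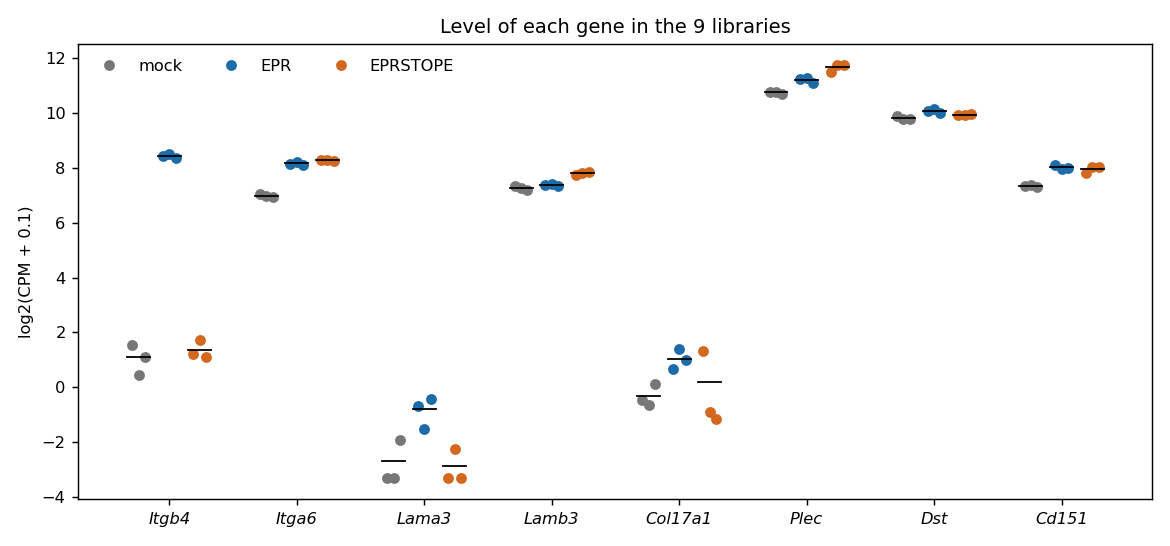
Level of the 8 genes in the 9 libraries, as log2(CPM + 0.1) on the y axis, with points for libraries, colours for the mock, EPR and EPRSTOPE groups and black bars at the log2 of the group mean (n = 3). *Itgb4* is at 330.43 to 366.33 CPM in EPR and at 1.27 to 3.20 CPM in the other 6 libraries. *Lama3* is near 0 everywhere, and *Plec* and *Dst* are the highest in CPM, which is not scaled for length.

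*Itgb4*, which encodes the β4 subunit, lies on chr11:115974709-116008412 (GRCm38, plus strand). It was at 2.80, 1.27 and 2.03 CPM in the mock libraries (18, 12 and 25.1 estimated counts), 347.29, 366.33 and 330.43 CPM in the EPR libraries (3979.1, 2901.3 and 3535.9 estimated counts) and 2.20, 3.20 and 2.07 CPM in the EPRSTOPE libraries (13, 30.1 and 18 estimated counts). The 3 EPR libraries stood far above all others, and mock and EPRSTOPE libraries overlapped. The log2 fold change was 7.46 (SE 0.16) for EPR against mock, 7.09 (SE 0.16) for EPR against EPRSTOPE and 0.37 (SE 0.25) for EPRSTOPE against mock, with 136-fold and 176-fold as the fitted ratios to EPRSTOPE and to mock. The order of levels was thus EPR above EPRSTOPE and mock, which did not differ beyond their spread.

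The nearest tested protein-coding genes on either side did not follow *Itgb4*. *Galk1*, which encodes galactokinase, lies 45 bases away. It was at 39.80 to 41.05 CPM in mock, 43.92 to 50.71 in EPR and 66.75 to 77.10 in EPRSTOPE libraries. *Galk1* was lower in EPR than in EPRSTOPE cells (log2 fold change -0.59). *Sap30bp*, 7984 bases off on the other side, was at 47.62 to 52.34, 48.50 to 51.58 and 56.84 to 64.07 CPM, with no call in any comparison. *Itgb4* overlaps the lincRNA gene *B230344G16Rik* on the opposite strand, and the strand setting of the quantification is not given in the sources used here.

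The transcripts of *Itgb4* differ in their first exons and in internal exons of the coding sequence. In EPR cells most of the estimated counts were assigned to Itgb4-202, which has neither of the internal exons printed next. These sequences are shown because they separate this main transcript of EPR cells from those to which the few counts of the other cells were assigned. EPR cells had transcripts with these exons as well. The 159-base exon lies on chr11:116005897-116006055 and adds 53 codons, and the 195-base exon lies on chr11:116004904-116005098 and adds 65 codons (GRCm38, plus strand, 5′ to 3′, both within the coding sequence).
Itgb4 159-base exon: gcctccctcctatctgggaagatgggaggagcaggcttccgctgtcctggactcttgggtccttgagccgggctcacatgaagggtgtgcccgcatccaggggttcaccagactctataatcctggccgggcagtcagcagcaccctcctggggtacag
Itgb4 195-base exon: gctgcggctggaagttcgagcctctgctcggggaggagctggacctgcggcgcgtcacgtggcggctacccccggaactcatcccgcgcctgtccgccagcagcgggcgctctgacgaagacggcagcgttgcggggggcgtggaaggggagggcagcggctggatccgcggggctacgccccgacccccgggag

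Itgb4-202 received 2907.5, 2358.1 and 2579.1 estimated counts in the EPR libraries, which is 75.8% ± 4.78 of the *Itgb4* counts (SD, n = 3), and 0 in each of the 6 mock and EPRSTOPE libraries. Of the TPM on coding transcripts in EPR cells, 80.1% ± 3.63 lacked both exons, 14.0% ± 5.73 was on transcripts with the 159-base exon and 5.95% ± 2.20 on those with the 195-base exon. In 4 of the other 6 libraries all counts on coding transcripts were on Itgb4-204, which has the 159-base exon. It had 15.0, 12.0 and 11.1 counts in mock and 13.0, 30.1 and 8.0 in EPRSTOPE libraries. In mock replicate 205 and EPRSTOPE replicate 211, however, more counts (12.6 and 9.8) were on transcripts with the 195-base exon, which held 53.8% and 55.7% of the coding TPM there. Itgb4-204 was at 206.6, 15.3 and 74.6 counts in the EPR libraries. With so few counts the split among transcripts is imprecise in mock and EPRSTOPE cells, and Kallisto assigns reads shared by transcripts by estimation.

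*Itga6*, the α6 subunit that pairs with β4 or β1, lies on chr2:71745616-71858416 (plus strand). It was at 132.97, 125.78 and 121.69 CPM in the mock libraries, 285.93, 298.90 and 278.94 in the EPR and 317.31, 309.99 and 308.02 in the EPRSTOPE libraries. Every EPR and EPRSTOPE library was above every mock library, and the EPRSTOPE libraries were slightly above the EPR libraries without overlap, as did those of 43.0% of all genes. *Itga6* rose 2.27-fold in EPR cells (log2 fold change 1.18, SE 0.06, adjusted p = 7.9e-09) and 2.46-fold in EPRSTOPE cells (1.30, SE 0.06, adjusted p = 3.2e-09). Unlike *Itgb4*, it differed little between EPR and EPRSTOPE cells, with a log2 fold change of -0.11 (SE 0.05).

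The last codons of *Itga6* come from either of 2 alternative ends, and the exon that decides between them is printed here from its first base to its stop codon, which is in capitals (chr2:71853534-71853641, GRCm38, plus strand).
Itga6 alternative exon: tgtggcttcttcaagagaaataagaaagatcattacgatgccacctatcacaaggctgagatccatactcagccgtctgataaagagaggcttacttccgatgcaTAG

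Transcripts that hold this exon gave 69.6% ± 20.9 of the TPM of coding *Itga6* transcripts in mock cells, 60.3% ± 9.03 with EPR and 87.8% ± 10.6 with EPRSTOPE (SD, n = 3). The mock and EPR ranges overlapped. EPR libraries, at 50.1% to 67.3%, were all below EPRSTOPE libraries, at 78.7% to 99.4%. Itga6-202, which skips the exon, was at 11.5%, 36.1% and 13.4% of the gene's counts in the mock, 23.3%, 26% and 34.4% in the EPR and 14.9%, 0.403% and 10.2% in the EPRSTOPE libraries, so its share varied widely within a group. The other main forms were better measured. Itga6-203, an annotated processed transcript without a coding sequence, rose in EPR (log2 fold change 1.20, SE 0.10, adjusted p = 0.00029) and in EPRSTOPE cells (1.33, SE 0.10, adjusted p = 0.00015), and Itga6-201, which holds the exon, rose in EPRSTOPE cells (1.69, SE 0.26, adjusted p = 0.0049) but did not pass in EPR cells (1.10, adjusted p = 0.036).

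TPM values are per length, so the subunits can be set side by side. *Itga6* was at 42.37, 38.51 and 37.38 TPM in the mock, 71.84, 83.81 and 65.52 in the EPR and 81.27, 88.21 and 81.40 in the EPRSTOPE libraries. *Itgb4* was at 0.37, 0.18 and 0.27 TPM, 57.60, 61.43 and 54.15 TPM, and 0.33, 0.53 and 0.29 TPM in the same order. The ratio of *Itgb4* to *Itga6* was therefore 0.787 ± 0.0484 in EPR cells and 0.00689 ± 0.00201 and 0.00453 ± 0.00129 in mock and EPRSTOPE cells (SD, n = 3). With RPKM (reads per kilobase, scaled to the library) in place of TPM it was 0.656 in EPR cells. Over annotated coding transcripts alone, an alternative chosen after the data had been seen, the ratio was 1.19 ± 0.0316 in EPR cells (0.0147 ± 0.00383 in mock and 0.00799 ± 0.00204 in EPRSTOPE cells), so which subunit was higher in EPR cells depended on whether transcripts without a coding sequence were counted.

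*Itgb1*, the alternative partner of α6, was not called in any comparison (log2 fold change -0.17 in EPR and 0.03 in EPRSTOPE cells against mock) and averaged 1025.09 CPM in mock cells. The ratio of *Itgb1* to *Itga6* in TPM was 8.06 ± 0.0375 in mock cells, 3.05 ± 0.247 with EPR and 3.54 ± 0.243 with EPRSTOPE, so *Itgb1* exceeded *Itga6* in all 9 libraries. *Itga3*, the α subunit of another laminin-332 receptor, averaged 402.94 CPM in mock cells, 564.27 with EPR and 362.28 with EPRSTOPE and was higher in EPR than in EPRSTOPE cells (0.64, SE 0.05, adjusted p = 2.0e-06). Its difference from mock cells did not reach a log2 of 0.5 in either population (0.49 and -0.15). The EPR difference was called with the 6 libraries compared alone (0.50), without mock replicate 204 (0.51) and without EPR replicate 208 (0.54). In TPM, however, *Itga3* was not higher in EPR than in mock cells, at 157.5 ± 20.7 against 169.31 ± 26.69 (SD, n = 3). With counts scaled from TPM and length, the *Itga3* difference between EPR and EPRSTOPE cells no longer passed (0.61, adjusted p = 0.030).

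**Figure D2:**
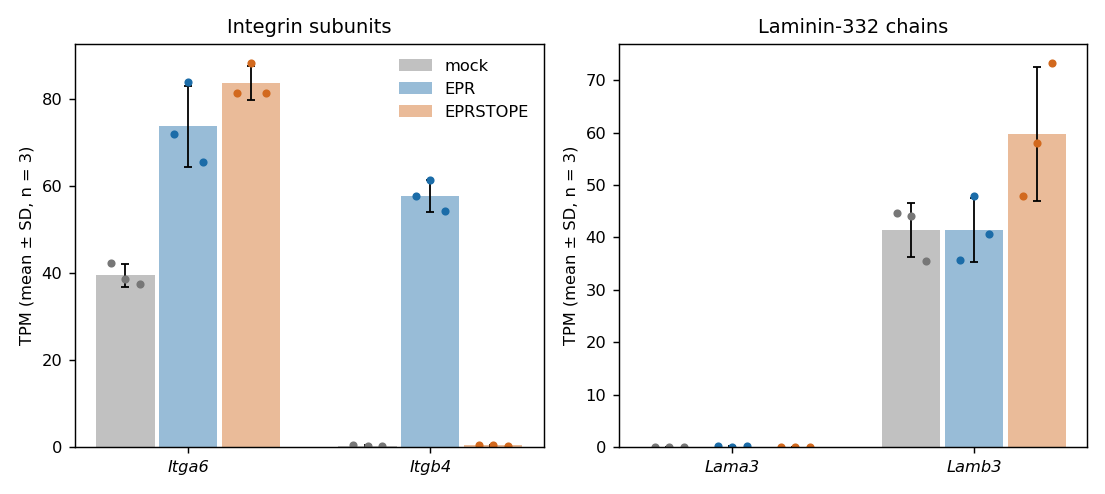
TPM of the integrin subunits *Itga6* and *Itgb4* (left) and of the laminin-332 chains *Lama3* and *Lamb3* (right) in mock, EPR and EPRSTOPE cells, with bars for the mean, whiskers for the SD and points for the 3 libraries. Over all transcripts, as drawn here, *Itgb4* is at 0.787 of the level of *Itga6* in EPR cells and near 0 in the others, and *Lama3* is near 0 in all groups.

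*Cd151*, the tetraspanin partner of α6 and α3 integrins, lies on chr7:141467392-141471473 (plus strand). It was at 161.87, 168.09 and 157.58 CPM in the mock libraries, 274.41, 250.28 and 254.65 in the EPR and 226.84, 260.87 and 261.54 in the EPRSTOPE libraries. The mock libraries were the lowest, and EPR and EPRSTOPE libraries overlapped. *Cd151* rose 1.60-fold in EPR cells (log2 fold change 0.68, SE 0.07, adjusted p = 5.6e-06) and 1.54-fold in EPRSTOPE cells (0.62, SE 0.07, adjusted p = 1.1e-05). Both calls were lost with counts rebuilt from TPM and length (0.38, adjusted p = 0.22, and 0.44, adjusted p = 0.17). In TPM the EPRSTOPE libraries ran from 125.06 to 273.73 and overlapped the mock range of 146.15 to 193.81. Between EPR and EPRSTOPE cells the log2 difference was 0.06 (SE 0.07). No transcript of *Cd151* passed by itself: Cd151-202 and Cd151-203, which held 36.7% ± 1.01 and 35.1% ± 3.44 of the counts in EPR cells, had log2 fold changes of 0.96 and 0.90 against mock (adjusted p = 0.095 and 0.062). Cd151-201, at 20.2% ± 7.39 of the counts in EPRSTOPE cells, was at 1.21 in EPR and 1.61 in EPRSTOPE cells (edgeR, adjusted p = 0.12 and 0.042). Cd151-205, at 10.9% ± 6.15 in mock cells, was at -2.73 and -0.86 (edgeR, adjusted p = 0.51 and 0.87).

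*Lamb3*, the β3 chain (chr1:193207699-193343878, plus strand), was at 163.89, 155.54 and 147.73 CPM in the mock libraries, 168.28, 169.47 and 161.48 in the EPR and 216.17, 228.09 and 232.89 in the EPRSTOPE libraries. The EPRSTOPE libraries were above all others, and mock and EPR libraries overlapped. It rose 1.45-fold in EPRSTOPE cells (log2 fold change 0.54, SE 0.06, adjusted p = 1.1e-05), a value just beyond the size limit that was 0.50 and uncalled without mock replicate 205, and its log2 fold change was 0.10 (adjusted p = 0.20) in EPR cells and -0.44 (SE 0.06) between EPR and EPRSTOPE cells. Lamb3-201 carried 95.3% ± 2.12 of the gene's counts in mock cells, 97.8% ± 0.704 with EPR and 97.0% ± 2.15 with EPRSTOPE, and rose in EPRSTOPE cells (0.59, SE 0.07, adjusted p = 0.00097). The gene overlaps *Hsd11b1* and *G0s2* on the opposite strand.

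*Lama3*, the α3 chain without which no trimer of this kind is made, was almost unmeasured. It had 0, 0 and 2.0 estimated counts in the mock, 6.4, 2.0 and 7.0 in the EPR and 0, 1.0 and 0 in the EPRSTOPE libraries, and it did not pass the filter. EPR replicates 206 and 208 alone were above 3 counts, and neither a fold change nor a test is given. The other laminin chains that these cells made were measured well: *Lama5* averaged 581.19 CPM, *Lamb2* 184.27, *Lamc1* 348.93 and *Lamb1* 172.50 in mock cells. *Lama5*, *Lamb2* and *Lamc1* were not called in any comparison, and their log2 fold changes against mock ranged from 0.13 to 0.44.

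**Figure D3:**
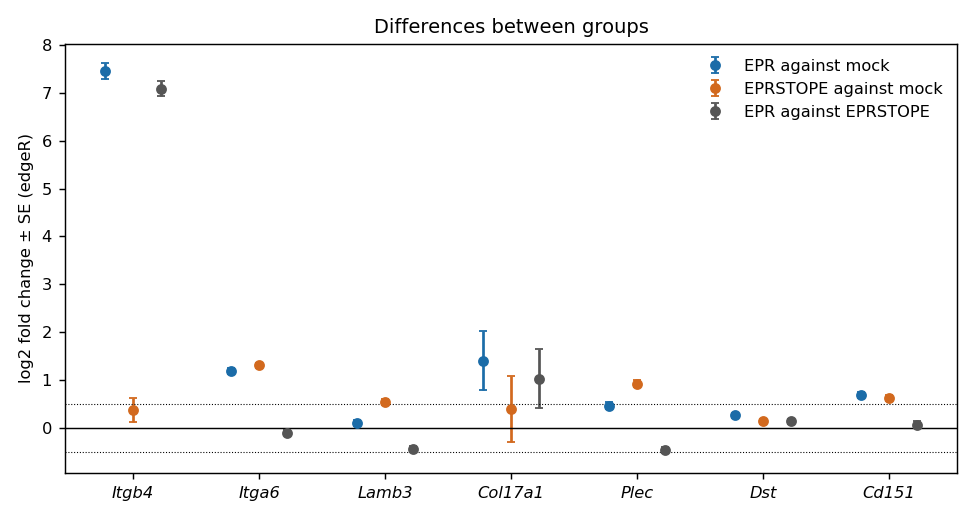
Log2 fold change (edgeR) of the 7 tested genes, with a standard error derived from the F statistic of its test. Values are for each population against mock and for EPR against EPRSTOPE cells, with dotted lines at the size limit of 0.5 on either side of 0. *Itgb4* is at 7.46, 0.37 and 7.09, *Itga6* at 1.18, 1.30 and -0.11, and *Col17a1* has the widest error bars.

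*Col17a1*, the collagenous transmembrane protein of hemidesmosomes (chr19:47646344-47692094, minus strand), was close to the limit of detection. Its estimated counts were 4.0, 5.0 and 12.0 in the mock, 17, 20 and 20 in the EPR and 14.0, 4.0 and 3.0 in the EPRSTOPE libraries, or 0.53 to 0.98, 1.48 to 2.53 and 0.35 to 2.37 CPM. The EPR libraries were above the mock libraries, while EPRSTOPE libraries were spread over both ranges. Neither difference from mock passed the test (log2 fold change 1.40, SE 0.62, adjusted p = 0.085 in EPR and 0.38, SE 0.69, adjusted p = 0.69 in EPRSTOPE cells), and the log2 difference between EPR and EPRSTOPE cells was 1.02 (SE 0.62). Without EPRSTOPE replicate 209 the EPRSTOPE difference from mock turned to -0.89 (adjusted p = 0.24) and the EPR to EPRSTOPE difference was 2.28.

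*Plec* encodes plectin, the linker between β4 and keratins, and lies on chr15:76170974-76232574 (minus strand). It was the most abundant of the 8 genes in CPM, at 1755.84, 1763.34 and 1677.56 in the mock, 2428.75, 2524.82 and 2173.70 in the EPR and 2909.30, 3454.14 and 3497.45 in EPRSTOPE libraries. The 3 groups did not overlap and stood in the order mock, EPR and EPRSTOPE from low to high, with a log2 difference of -0.47 (SE 0.07) between EPR and EPRSTOPE cells. *Plec* rose 1.90-fold in EPRSTOPE cells (log2 fold change 0.92, SE 0.07, adjusted p = 6.1e-07). In EPR cells it was 1.37-fold higher, short of the size limit (0.46, SE 0.07, adjusted p = 0.00024), and was called with counts scaled from TPM (0.62, adjusted p = 0.0023) or without EPR replicate 208 (0.55).

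*Plec* has many first exons, which give its products different N-terminal ends and so different partners. Shares given next are of the TPM of *Plec* transcripts with an annotated start codon. They leave out the coding transcript Plec-211, at 12.5, 9.71 and 9.72 TPM in mock, EPR and EPRSTOPE cells. In mock cells the first exons of Plec-206 and Plec-201 accounted for 42.0% ± 1.90 and 27.4% ± 4.47 (SD, n = 3). These first exons had 42.0% ± 0.927 and 34.0% ± 2.37 in EPR and 40.9% ± 3.33 and 33.5% ± 2.44 in EPRSTOPE cells. Both were higher in EPRSTOPE than in mock cells: Plec-206 by a log2 fold change of 0.85 (SE 0.07, adjusted p = 0.00023) and Plec-201 by 1.18 (SE 0.14, adjusted p = 0.0012). In EPR cells they were at 0.41 (adjusted p = 0.010) and 0.72 (adjusted p = 0.015) and were not called. The first exon shared by Plec-202, Plec-212 and Plec-218 had 15.3% ± 5.71, 7.77% ± 3.27 and 12.5% ± 3.97 of the same TPM in mock, EPR and EPRSTOPE cells. Most of this was on Plec-212, a 2158-base model annotated without a stop codon. Plec-212 held only 2.21%, 1.12% and 1.85% of the gene's counts. *Plec* overlaps *Parp10* on the same strand, so reads of that stretch may be split between both genes.

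*Dst*, also called BPAG1, lies on chr1:33908225-34308661 (plus strand) and makes several very large plakins. It was at 945.57, 882.35 and 885.74 CPM in the mock libraries, 1084.81, 1130.19 and 1030.64 in the EPR and 988.18, 977.82 and 997.71 in the EPRSTOPE libraries. The mock libraries were the lowest and the EPR libraries the highest, without overlap, and the differences were small: 1.20-fold in EPR (log2 fold change 0.26, SE 0.05, adjusted p = 0.00084) and 1.09-fold in EPRSTOPE cells (0.13, SE 0.05, adjusted p = 0.049). Neither reached the size limit. In TPM the EPR libraries ran from 81.94 to 101.03 and the EPRSTOPE libraries from 83.47 to 100.87. Both overlapped the mock range of 82.43 to 88.70 TPM. Between EPR and EPRSTOPE cells the log2 difference was 0.13 (SE 0.05).

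Most *Dst* transcripts start at one of a few promoters, and the pair of 250-base windows before annotated RefSeq start sites of *Dst* is printed because the forms compared next begin beside them (RefSeq, GRCm38.p6, plus strand). The first window, chr1:34011345-34011594, lies upstream of the first exon of Dst-201, Dst-202 and Dst-203, and the second, chr1:34160010-34160259, upstream of that of Dst-213, Dst-215 and Dst-217. Capitals mark the letters CACCTG, an E-box recognised by ZEB and SNAIL repressors, searched on both strands (reverse complement CAGGTG). The table of RefSeq promoters held 4 of the 8 genes (*Lamb3*, *Col17a1*, *Dst* and *Cd151*).
Dst upstream window 1: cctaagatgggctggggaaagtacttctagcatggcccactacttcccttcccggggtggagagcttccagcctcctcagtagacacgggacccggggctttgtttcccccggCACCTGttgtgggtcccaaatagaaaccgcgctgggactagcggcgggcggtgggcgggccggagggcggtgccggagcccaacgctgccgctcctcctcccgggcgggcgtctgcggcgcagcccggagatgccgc
Dst upstream window 2: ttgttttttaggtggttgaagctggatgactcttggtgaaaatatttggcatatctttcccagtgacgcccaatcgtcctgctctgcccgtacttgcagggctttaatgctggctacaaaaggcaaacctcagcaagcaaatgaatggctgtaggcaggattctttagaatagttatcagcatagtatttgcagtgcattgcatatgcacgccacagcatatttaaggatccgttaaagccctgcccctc

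The first window holds the letters 1 time and the second 0 times, and 17.2% of all windows of this length (5657 of 32851) hold them. The match is a description of these letters and not a site. Transcripts from the first exon downstream of window 1 gave 21.1% ± 3.08, 21.2% ± 5.17 and 19.4% ± 4.0 of the TPM of *Dst* transcripts with an annotated start codon in mock, EPR and EPRSTOPE cells, and those downstream of window 2 gave 46.8% ± 4.94, 46.2% ± 1.61 and 55.9% ± 6.20 (SD, n = 3). The first of these shares overlapped between all groups. Dst-211, which starts at a first exon far upstream of both windows, had 14.1% ± 1.96, 12.7% ± 0.859 and 6.49% ± 0.42.

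The forms also differ in the length of their reading frame. Long forms (Dst-201, Dst-203 and Dst-211, 7393 to 7717 codons) made up 19.9% ± 1.25 of the TPM of these forms in mock cells, 17.8% ± 1.46 with EPR and 8.18% ± 0.867 with EPRSTOPE. Middle forms (Dst-202 and Dst-215, of 5379 and 5175 codons) made up 63.7% ± 1.47, 69.9% ± 1.79 and 83.6% ± 0.752. The short or open-ended forms were Dst-213 (2639 codons) and Dst-217 (annotated without a stop codon, so that its 2987 codons are a minimum and its end is not known). They made up 16.4% ± 1.24, 12.3% ± 1.81 and 8.22% ± 0.196. Other models were left out of this division, among them Dst-218 and Dst-220, also annotated without a stop codon. Dst-218 was at 2.15, 6.58 and 5.43 TPM and Dst-220 at 4.82, 3.91 and 3.06 TPM in mock, EPR and EPRSTOPE cells. Counting them would lower the shares of the long and middle forms. Of the gene's counts Dst-213 held 1.99%, 1.74% and 1.55% and Dst-217 5.48%, 3.9% and 2.31% in the same order. Levels of *Dst* as a gene therefore came mostly from the long and middle forms. The EPRSTOPE libraries lay outside the ranges of the other 6 libraries for all 3 kinds. This division was chosen after transcript values had been seen, and no test is given for it.

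Single *Dst* transcripts were also tested, but the division just given was made from their values, so their p-values are no independent support for it. Dst-211, a long form, was at 1062.7, 1836.0 and 2563.9 estimated counts in the mock, 2342.8, 1634.7 and 2274.9 in the EPR and 595.9, 974.8 and 769.3 in the EPRSTOPE libraries, and it fell in EPRSTOPE cells (log2 fold change -0.92, SE 0.11, adjusted p = 0.0017) with 0.19 (adjusted p = 0.44) in EPR cells. Dst-217, named after its values were seen, fell in EPRSTOPE cells (-1.09, SE 0.16, adjusted p = 0.0041) and was at -0.18 (adjusted p = 0.65) in EPR cells. Dst-215, a middle form, rose in EPRSTOPE cells (0.75, SE 0.12, adjusted p = 0.0050) and was at 0.47 (adjusted p = 0.043) in EPR cells. Dst-202, the other middle form, did not pass in either (0.40, adjusted p = 0.39, and 0.23, adjusted p = 0.68), nor did Dst-213 (0.10 and -0.21).

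**Figure D4:**
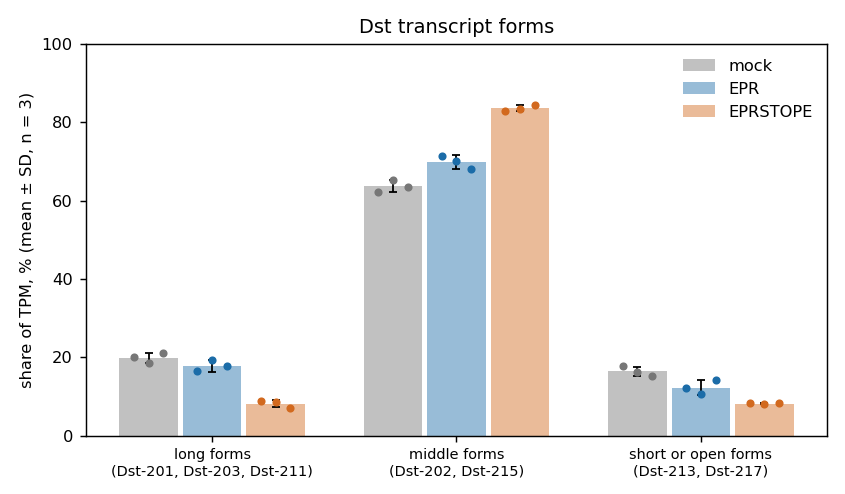
Share of TPM held by long, middle and short or open-ended forms of *Dst* in mock, EPR and EPRSTOPE cells, in percent, with bars for the mean, whiskers for the SD and points for the 3 libraries. Middle forms are at 63.7% in mock cells, 69.9% with EPR and 83.6% with EPRSTOPE, and the other kinds are lowest in EPRSTOPE cells. Shares are of the forms named under the bars, which leave out Dst-218 and Dst-220.

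Over the 7 genes other than *Itgb4*, 53 of 75 transcripts passed the filter. Of these 1, Itga6-203, was called in EPR cells, beside 4.07% of all 45412 transcripts tested in either direction. In EPRSTOPE cells 6 were higher and 2 lower than in mock cells, beside 3.11% and 1.53% of all transcripts in these directions and 4.64% in both. Without mock replicate 204 the EPR count was 3. The biological coefficient of variation that edgeR estimated was 0.7089 for transcripts and 0.1317 for genes. Between EPR and EPRSTOPE cells 3 of 58 transcripts of all 8 genes were called (Dst-211, Itgb4-201 and Itgb4-202, beside 0.854% of all transcripts), and nothing is read from this count.

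The other genes of this adhesion system were taken from 8 lists of 68 genes, of which 67 were in the files and 53 passed the filter. In EPR cells 23 were higher and 10 lower than in mock cells, in EPRSTOPE cells 18 were higher and 6 lower, and between EPR and EPRSTOPE cells 9 were higher and 6 lower. Over all genes tested the shares called higher and lower were 15.2% and 12.9%, 15.6% and 12.4%, and 6.86% and 6.35% in these comparisons. The counts of each list below stand beside these same shares. The median log2 fold changes were 0.49, 0.35 and -0.02, beside -0.01, -0.04 and 0.01 over all genes tested. These lists were chosen with earlier results of these data known.

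Among 9 tested basement membrane genes, 3 fell in EPR cells and 2 in EPRSTOPE cells, and the others were not called against mock. The list median was 0.08 in EPR and 0.06 in EPRSTOPE cells. *Col7a1*, the anchoring fibril collagen that fastens the lamina to the dermis in skin, fell from 211.04 CPM in mock to 5.57 in EPR (log2 fold change -5.26, SE 0.10, adjusted p = 3.3e-12) and 6.73 in EPRSTOPE cells (-4.98, SE 0.10, adjusted p = 5.3e-12). *Lamb1*, the β1 laminin chain, fell from 172.50 CPM to 14.82 in EPR (-3.55, SE 0.10) and 4.90 in EPRSTOPE cells (-5.13, SE 0.12), and was 2.98-fold higher in EPR than in EPRSTOPE cells (1.58, SE 0.13, adjusted p = 3.0e-06). *Col4a1*, a chain of the collagen IV network, fell in EPR cells (-0.67, SE 0.05, adjusted p = 6.1e-07).

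All 6 laminin receptor genes were tested. In EPR cells 2 rose against mock, *Bcam* and *Sdc1*, and in EPRSTOPE cells *Sdc4* rose as well. The median log2 fold change was 0.44 in EPR and 0.73 in EPRSTOPE cells. *Bcam*, the Lutheran receptor for the laminin α5 chain, rose from 0.76 CPM in mock to 5.71 in EPR (log2 fold change 2.87) and 4.34 in EPRSTOPE cells (2.48). *Sdc4*, a syndecan, rose 2.22-fold in EPRSTOPE cells (1.15, SE 0.05, adjusted p = 6.3e-09) and was at 0.11 in EPR cells, and it was 2.07-fold lower in EPR than in EPRSTOPE cells (-1.05, SE 0.05, adjusted p = 7.0e-08). *Sdc1* was called in all 3 comparisons (0.66, 1.25 and -0.59), though not in EPR against mock with counts scaled from TPM (0.45).

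Of the 4 plakins tested besides *Plec* and *Dst*, *Dsp*, *Evpl* and *Ppl* rose in EPR cells, with a list median of 1.12. *Dsp*, the desmosomal plakin desmoplakin, averaged 161.39 CPM in mock cells, 479.85 with EPR and 379.72 with EPRSTOPE (log2 fold change 1.57 and 1.24, SE 0.06 each, adjusted p = 1.1e-09 and 6.7e-09). In EPRSTOPE cells *Dsp* alone was called, and the list median was 0.27. *Evpl*, which encodes envoplakin, was low, at 0.57 CPM in mock cells, 3.0 with EPR and 0.49 with EPRSTOPE, and was higher in EPR than in EPRSTOPE cells (2.56, SE 0.46, adjusted p = 0.0013).

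The keratins to which hemidesmosomes connect in basal cells are *Krt5* and *Krt14*. *Krt5* did not pass the filter, and *Krt14* was at 0 in all EPR libraries and averaged 0.90 CPM in mock and 2.32 in EPRSTOPE cells. Against a floor of 3 counts per library (0.303 CPM) *Krt14* was at least 7.64-fold lower in EPR than in EPRSTOPE cells. The simple epithelial keratins were abundant instead: *Krt8* rose from 2108.48 CPM in mock to 5262.97 in EPR (log2 fold change 1.32) and 5976.86 in EPRSTOPE cells (1.5), and *Krt18* from 1526.47 to 3745.69 (1.29) and 4137.45 (1.44). Of the 6 tested intermediate filament genes 4 were higher and 2 lower in EPR cells (median 1.18), and 2 were higher in EPRSTOPE cells (median 0.92). *Vim*, the filament of mesenchymal cells, was lower in EPR than in EPRSTOPE cells (-0.83, SE 0.05, adjusted p = 3.9e-07).

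*Cd151* was 1 of many tetraspanins called. Of the 11 others tested, 7 were higher and 1 lower in EPR cells (median 0.54), and 5 were higher and 1 lower in EPRSTOPE cells (median 0.46). *Cd81* rose from 91.04 CPM in mock to 301.76 in EPR (log2 fold change 1.73, SE 0.06) and 219.31 in EPRSTOPE cells (1.27, SE 0.06), and *Cd82* from 15.98 to 52.21 and 46.75. *Tspan6* went from 11.44 CPM in mock to 4.19 in EPRSTOPE cells and was at 0 in all EPR libraries, at least 37.8-fold lower than in mock and at least 13.8-fold lower than in EPRSTOPE cells. *Tspan8* was higher (0.71) and *Cd63* lower (-0.66) in EPR than in EPRSTOPE cells.

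Among the 10 genes of signalling around α6β4, 4 were higher and 2 lower in EPR cells (median 0.54), and 3 were higher and 2 lower in EPRSTOPE cells (median 0.12). *Fermt1* (kindlin-1, an activator of integrins) had the largest change, from 0.92 CPM in mock to 52.75 in EPR (log2 fold change 5.82, SE 0.17, adjusted p = 1.1e-10) and 19.27 in EPRSTOPE cells (4.37, SE 0.18, adjusted p = 1.9e-09). It was 2.74-fold higher in EPR than in EPRSTOPE cells (1.45, SE 0.11, adjusted p = 1.8e-06), a call lost with counts scaled from TPM (1.13, adjusted p = 0.027). *Shc1*, an adaptor recruited to the β4 tail, rose in EPR (1.35) and EPRSTOPE cells (1.12), whereas the kinase *Fyn* fell in both (-1.18 and -1.26). *Egfr* rose in both (0.81 and 0.91), and *Met* was lower in EPR cells (-0.77). *Mst1r*, at 3.03 CPM or less on average, was called higher in EPR than in EPRSTOPE cells (2.48), but with counts scaled from TPM it was at 0.39 (adjusted p = 0.73). Its lower call in EPRSTOPE cells (-1.75, adjusted p = 0.0097) was lost with DESeq2 (-1.77), limma-voom (-1.55) and the 6 libraries compared (-1.73), turned to 0.74 with counts scaled from TPM, and was lost whenever a library other than mock replicate 204 was left out (-1.92 to -1.41).

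The proteases that process laminin-332 chains were represented by *Bmp1* and *Mmp14*, which both rose in EPR (log2 fold change 1.17 and 1.06) and EPRSTOPE cells (1.58 and 1.17), while 2 other list genes did not pass the filter. The list median was 1.11 and 1.38. Of 5 tested epithelial regulators 1 was higher and 2 lower with EPR, while EPRSTOPE gave 2 higher and 1 lower. *Esrp2*, an epithelial splicing factor, was higher in both (1.43 and 0.86), and *Snai2*, a repressor of epithelial genes, was lower in both (-1.5 and -1.03). *Snai1*, another such repressor, rose in EPRSTOPE cells (1.59, adjusted p = 0.00045) and was at 0.76 in EPR cells, where it did not pass (adjusted p = 0.041), and *Zeb2*, a repressor as well, fell in EPR cells (-0.78). The list medians were -0.13 and -0.11. The EPRSTOPE call of *Snai2* was lost without mock replicate 204 or 205 or EPRSTOPE replicate 209 or 211 (-0.98, -0.99, -1.0 and -0.94) and with counts scaled from TPM (-0.83). *Esrp2* was also higher in EPR than in EPRSTOPE cells (0.57, SE 0.12, adjusted p = 0.0039), a call lost without EPR replicate 207 or 208 or EPRSTOPE replicate 209 or 211 (0.56, 0.51, 0.57 and 0.48) and with counts scaled from TPM (0.36).

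Genes with a pattern like that of *Itgb4* were sought among 9322 genes that averaged at least 10 CPM, by Pearson correlation of log2(CPM + 1) over the 9 libraries, which share their 3 groups. The 5 most alike were *Slc9a2* (r = 0.9959), *Shtn1* (0.9946), *Cxcl16* (0.992), *Itga2* (0.9919) and *AC153370.2* (0.9902). As these genes were picked by this likeness, their levels are descriptions. *Itga2*, the α subunit of a collagen receptor, averaged 136.00 CPM in mock cells, 447.92 with EPR and 138.93 with EPRSTOPE. *Slc9a2*, a sodium and proton exchanger, averaged 0.05, 75.31 and 0.68 CPM, and *Cxcl16*, a chemokine, 0.63, 35.44 and 0.59 CPM. *Shtn1* (shootin-1) and *AC153370.2* were expressed in all groups and were highest in EPR cells, at 133.42 and 172.01 CPM.

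The neighbours of the other genes were compared likewise, as the nearest tested protein-coding gene on either side. *Pdk1*, 14808 bases from *Itga6*, was called higher in both populations against mock (log2 fold change 1.51 and 1.02), and *Dlx1*, 211635 bases off on the other side, lower (-1.33 and -1.61). *Grina*, 14190 bases from *Plec*, was called higher in both (1.30 and 1.82) and was at -0.52, a lower call, for EPR against EPRSTOPE. *Nrbp2*, 79347 bases from *Plec* on the other side, was higher in EPRSTOPE than in mock cells (1.27). *Slk*, 1098 bases from *Col17a1*, was higher in EPR than in EPRSTOPE cells (0.77). *Sfr1*, 39588 bases off on the other side, was higher in that comparison (0.51) and was called lower for EPRSTOPE against mock (-0.53). *Plxna2*, as far as 1274340 bases from *Lamb3*, was lower in EPR than in EPRSTOPE cells (-0.88). *Ttc39c*, 16883 bases from *Lama3*, was lower in EPRSTOPE than in mock cells (-1.17). Neither neighbour of *Dst* nor of *Cd151* was called in any comparison.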

How the data were processed

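RNA-Seq libraries (stranded total RNA, paired-end) from 9 NMuMG samples were grouped by their genotype label, with the numbers in the titles as replicate names. The authors quantified reads on the Gencode vM15 mouse transcripts with Kallisto, version 0.43.1 per the submitters' processing notes, and deposited estimated counts per transcript, which are not normalized, beside TPM values, which the authors' tool scaled by effective length and library. Builds named in the notes are GRCm38.p5 and hg38. Positions and exons are from the Gencode M21 annotation of GRCm38, which shares its primary coordinates.

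Estimated counts were summed per gene symbol and rounded. A filter kept genes, and in a separate fit transcripts, that reached 1 CPM in 3 or more libraries, and edgeR 4.0.16 was run on them (TMM, quasi-likelihood, 1 factor of 3 groups, all 9 libraries, R 4.3.3) with Benjamini-Hochberg adjustment. Calls needed a log2 fold change past 0.5 in size with an adjusted p below 0.01. The SE of a log2 fold change is its size divided by the square root of the F statistic of the quasi-likelihood test. CPM are scaled by TMM. TPM were used only for levels between genes and shares of transcripts. Alternatives were DESeq2 1.42.0, limma-voom 3.58.1, no filter, counts rebuilt from TPM and length, the 6 libraries compared, each library left out and a size limit of 1, with levels over coding transcripts alone added after the data had been seen.

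The 8 genes, the 8 lists of related genes and the markers of luminal, basal or myoepithelial, fibroblast, endothelial and leukocyte cells were chosen with earlier results of these data known. Genes named from a list were the 3 called ones with the largest change in a comparison, besides *Itga3* and *Itgb1*, which are always given. 1 gene of the lists is not reported here. Others named for a low level, a list's count or a role (*Krt5*, *Krt19*, *Egfr*, *Met*, *Lama5*, *Lamb2*, *Lamc1*, *Cdh1*) and neighbouring genes were named after their values were seen. Transcripts from 10% of their gene's counts in a group were named, apart from Itgb4-203 and those of *Lama3* and *Col17a1*. Others were named where a class needed them. The depth of 5972457 to 11876435 counts sets the precision of low genes, and the floor of 3 counts covers counting error only.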

Additional observations from a re-analysis of the deposited data

Results flagged for a closer look

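The effects of EPR and of EPRSTOPE against mock differed, by the direct test of EPR against EPRSTOPE cells (edgeR's quasi-likelihood test), for 15 genes of the lists. In log2 fold change they were higher in EPR cells for *Lamb1* (1.58), *Itga3* (0.64), *Evpl* (2.56), *Krt7* (2.69), *Krt19* (0.60), *Tspan8* (0.71), *Mst1r* (2.48), *Fermt1* (1.45) and *Esrp2* (0.57). They were lower in EPR cells for *Sdc4* (-1.05), *Sdc1* (-0.59), *Vim* (-0.83) and *Cd63* (-0.66), and for *Krt14* and *Tspan6*, which were at 0 in every EPR library and at least 7.64-fold and 13.8-fold lower than in EPRSTOPE cells. *BC030870* was also 5.9-fold higher in EPR than in EPRSTOPE cells, and its part in these differences was not tested. *Itgb4* and the other 7 genes are left out since this contrast chose them.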

How the results depend on the processing

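No paired analysis was possible because the groups share no replicate numbers. With a size limit of 1 in place of 0.5, the genes called were 2296 for EPR against mock, 2373 for EPRSTOPE against mock and 1001 for EPR against EPRSTOPE (4316, 4302 and 2031 otherwise), the calls among the 6 genes other than *Itgb4* were 1 in EPR and 1 in EPRSTOPE cells, and those among list genes were 21 for EPR against mock and 8 for EPR against EPRSTOPE (33 and 15 otherwise). Counts scaled from TPM and length gave 922 genes for EPR against EPRSTOPE. For transcripts of the genes other than *Itgb4* in EPR against mock DESeq2 called 6 and limma-voom 2 in place of 1, and for transcripts of all 8 genes in EPR against EPRSTOPE DESeq2 called 7 in place of 3. The *Itgb4* to *Itga6* ratio in EPR cells was 0.656 with RPKM. Over coding transcripts alone, an alternative chosen after seeing the data, it was 1.19 in EPR, 0.0147 in mock and 0.00799 in EPRSTOPE cells.

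With 1 library left out, transcripts called other than those of *Itgb4* numbered 1 to 3 for EPR against mock (3 without mock replicate 204) and 5 to 7 for EPRSTOPE against mock (5 without EPRSTOPE replicate 210, 8 with all libraries). For EPR against EPRSTOPE 1 to 2 transcripts were called, with 1 left whenever an EPR or EPRSTOPE library was missing, and 1 to 3 of the 7 genes, with 2 without EPR replicate 207 and 3 without EPRSTOPE replicate 209. Reversed in sign were *Col17a1* in EPRSTOPE against mock (limma-voom -0.14, and from -0.89 without EPRSTOPE replicate 209 to 0.81 with 1 library left out), and in the same contrast *Itgb1* (from -0.01 without EPRSTOPE replicate 209 to 0.07), *Evpl* (from -0.63 to 0.40, the latter without mock replicate 205) and *Mst1r* (counts scaled from TPM, 0.74), and, in EPR against EPRSTOPE, *Cd82* (0.00) and *Shc1* (-0.01) with counts scaled from TPM. The cause was not tested. Depth limits *Lama3* and the split of *Itgb4* among transcripts in mock and EPRSTOPE cells.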
